A study of Mus musculus with 8 samples.

Results

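The core transcription factors of sympathetic neuron development were measured as 8 genes, Phox2a, Hand1, Hand2, Gata2, Gata3, Insm1, Tfap2b and Isl1, taken from the 23827 rows of the count table by their symbols. Each symbol stood on 1 row, and all 8 were among the 14592 genes that passed the filter on low counts. RNA was taken from the superior cervical ganglion, the uppermost sympathetic ganglion of the neck, in C57Bl6/n mice at postnatal day 1, with 4 animals in each of 2 groups. Control animals had the genotype KIF1Bb fl/fl with DBHcre -/-, that is, a floxed Kif1b beta gene without Cre recombinase. Conditional knockout (cKO) animals had KIF1Bb fl/fl with DBHcre +/-, in which the promoter of Dbh, a gene of noradrenergic cells, drives Cre. Every animal in both groups therefore carried the floxed allele, and Cre itself was present in cKO animals only, so an effect of Cre and an effect of the deletion cannot be told apart. Glia, vessels and connective tissue of the ganglion are not cells in which that promoter is known to be active, so whole ganglia mix targeted and untargeted cells. The p-values measure the spread between the libraries of these animals.

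Sympathetic neurons arise from neural crest cells that settle beside the dorsal aorta, where bone morphogenetic protein signals switch on a set of transcription factors that then maintain each other. These factors turn on the enzymes and transporters of noradrenaline and the genes of neuronal form. Phox2a is a paired-type homeodomain protein that binds the promoter of Dbh. Hand1 and Hand2 are basic helix-loop-helix (bHLH) proteins, Gata2 and Gata3 are zinc finger proteins that bind GATA sequences, and Isl1 is a LIM-homeodomain protein also used by sensory and motor neurons. Tfap2b encodes AP-2 beta, a factor of neural crest derivatives, and Insm1 encodes a zinc finger protein of newly formed neurons and endocrine cells.

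Total counts per library lay between 16214912 and 18114418, and the 8 genes together took between 0.206% and 0.258% of them. Kif1b, the targeted gene, stood at 1224 ± 222 CPM in control ganglia and at 260 ± 52.7 CPM in cKO ganglia (SD, n = 4; CPM are read counts relative to the TMM-scaled library size), with all cKO libraries below all control libraries. Control 1 and cKO 1 were set apart from the others of their groups by muscle and cartilage markers, and control 4 and cKO 4 by sensory neuron markers, with values given beside the results they touch. In whole ganglia, fewer neurons and less RNA per neuron cannot be told apart.

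Upstream sequences of 3 of these genes are shown because Isl1 was the member whose groups did not overlap, while Phox2a and Gata2 varied together from library to library. Phox2a and Gata2 were not the closest pair, since Gata2 correlated more closely with Gata3 and with Insm1. The sequences are the 250 bases before a RefSeq start site on GRCm38.p6, written 5′ to 3′ on the gene's strand. Capitals mark the E-box core CANNTG (the bHLH motif, which reads the same on both strands), the GATA core (GATA or its reverse TATC) and the homeodomain core TAAT (or its reverse ATTA). RefSeq promoters were found for 6 of the 8 genes, and those of Hand1 and Insm1 were not used here.
Isl1, chr13:116309689-116309938, minus strand: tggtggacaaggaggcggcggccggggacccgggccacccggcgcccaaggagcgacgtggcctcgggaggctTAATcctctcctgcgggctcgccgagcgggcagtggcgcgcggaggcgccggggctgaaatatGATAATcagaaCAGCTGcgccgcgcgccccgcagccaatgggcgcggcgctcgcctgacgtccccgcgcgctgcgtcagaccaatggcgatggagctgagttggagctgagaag
Phox2a, chr7:101818063-101818312, plus strand: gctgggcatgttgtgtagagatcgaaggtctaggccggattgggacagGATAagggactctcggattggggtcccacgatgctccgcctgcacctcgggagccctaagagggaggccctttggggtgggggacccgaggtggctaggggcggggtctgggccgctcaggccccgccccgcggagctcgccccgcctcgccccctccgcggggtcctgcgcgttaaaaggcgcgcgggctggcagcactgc
Gata2, chr6:88193641-88193890, plus strand: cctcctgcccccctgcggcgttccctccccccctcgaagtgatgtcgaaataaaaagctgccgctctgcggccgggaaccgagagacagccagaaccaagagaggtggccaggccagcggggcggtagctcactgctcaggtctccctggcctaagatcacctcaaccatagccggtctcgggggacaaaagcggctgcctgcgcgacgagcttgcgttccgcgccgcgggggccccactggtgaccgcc

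The Isl1 window held 1 CANNTG, 1 GATA and 2 TAAT cores, the second TAAT overlapping the GATA core. The Phox2a window held 1 GATA core and neither of the others, and the Gata2 window held none of the 3. RefSeq gives Gata2 a second start site, whose window (chr6:88198414-88198663, GC content 74%) also held none and is not shown. Such cores are common: of 32851 RefSeq promoter windows of the same length, 66.2% held CANNTG, 53.6% GATA and 54.9% TAAT. The GC content was 71.2% for Isl1, 70.4% for Phox2a and 67.2% for Gata2, against a median of 52.4% over all windows. Windows of other members, not shown, differed. That of Hand2 held 2 CANNTG, 2 GATA and 5 TAAT cores at a GC content of 49.2%. That of Tfap2b held 1 CANNTG, 1 GATA and 6 TAAT cores at 46.4%, and that of Gata3 held none at 70%. A match is a description of the letters and not evidence of binding, and no binding was measured here.

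The level of each factor was compared per kilobase of exon, since longer transcripts give more reads. Length was that of the merged exons of all annotated transcripts of a gene. It was 3959 bases for Isl1 and 5398 for Gata2, whose longest single transcripts have 2516 and 3571 bases. For Phox2a it was 2035 against 1609 bases, and for Hand2 2351 in both. The orders below hold for merged exons and depend on that choice of length. In control ganglia Phox2a stood first at 152 ± 44.1 CPM per kb (SD, n = 4), followed by Hand2 at 132 ± 20.9, Hand1 at 111 ± 12.2 and Isl1 at 111 ± 6.22 CPM per kb. Tfap2b had 78.5 ± 8.38, Gata2 68.7 ± 9.79 and Gata3 44.4 ± 7.29 CPM per kb, and Insm1 was last at 2.31 ± 0.753 CPM per kb. Ranges over the control libraries overlapped between each neighbouring pair among the first 4 genes and between Tfap2b and Gata2, so these orders do not exceed the spread. Isl1 (lowest control 104 CPM per kb) lay above Tfap2b (highest 90.2), Gata2 (lowest 61.4) above Gata3 (highest 54.2), and Gata3 (lowest 36.6) above Insm1 (highest 3.40). In cKO ganglia Phox2a again stood first, at 144 ± 23.3 CPM per kb, and Isl1 came second, at 137 ± 14.5, ahead of Hand2 at 116 ± 20.8 CPM per kb, with ranges that overlapped (121 to 175, 119 to 155 and 87.4 to 137). Among the 8 genes, 7 ranked above 92.4% or more of all tested genes with a length in control ganglia, while Insm1 ranked at 28.8%.

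**Figure D1:**
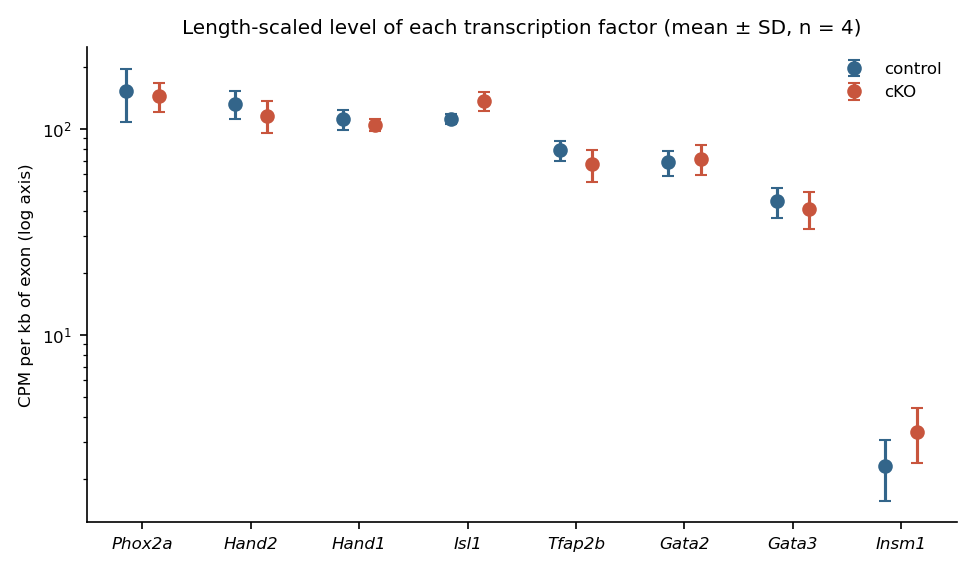
Length-scaled level of each transcription factor (CPM per kb of exon, log axis) in control (blue) and cKO (red) ganglia, as mean ± SD of 4 libraries. Insm1 sits at 2.31 CPM per kb in control ganglia, far below the other 7 genes, which lie between 44.4 and 152.

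The question was whether loss of the motor protein KIF1B beta altered this set of factors. None of the 8 genes passed at an adjusted p below 0.05 in edgeR's quasi-likelihood test, where 2.72% of all tested genes did (397 of 14592). Adjusted p ranged from 0.154 for Isl1 to 0.906 for Phox2a, and 1 of the 8, Isl1, had an unadjusted p below 0.05, against 16.8% of all tested genes. Their median log2 fold change was -0.08, with 3 positive and 5 negative values, beside a median of -0.00063 over all tested genes. The only member whose groups did not overlap was Isl1, against 11% of all tested genes in either direction, 6% with cKO higher and 5.02% with cKO lower. Calls in single directions made up 1.6% of tested genes for higher and 1.12% for lower levels in cKO ganglia.

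**Figure D2:**
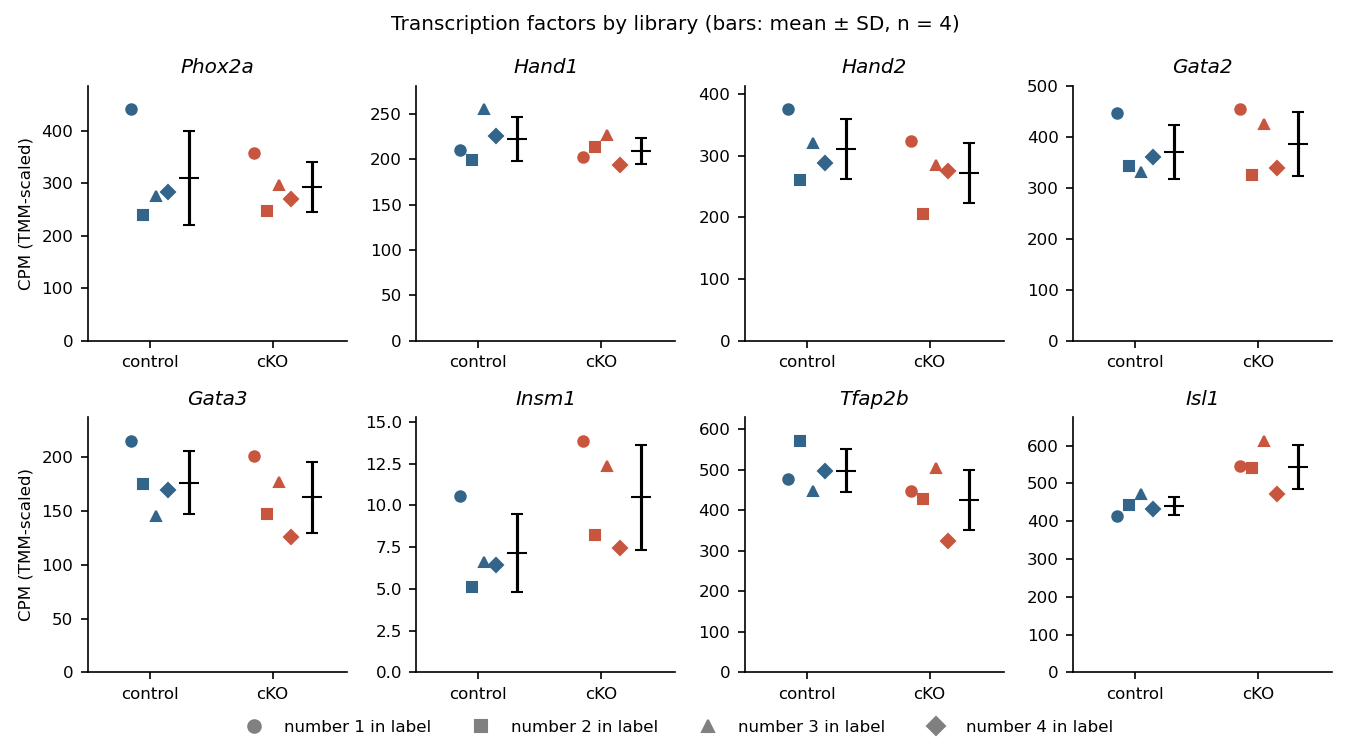
TMM-scaled CPM of the 8 transcription factors in each of 4 control (blue) and 4 cKO (red) libraries, each panel starting at 0, with symbol shape for the number in the sample label and bars for the mean ± SD. Groups overlap in 7 panels, and in the Isl1 panel the highest control library (472.2 CPM) lies just under the lowest cKO library (472.3 CPM).

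Isl1 (ENSMUSG00000042258.13, chromosome 13, 116298281 to 116309689, minus strand, GRCm38) is needed for the survival and maturation of sympathetic and sensory neurons. Its 4 control libraries had 413, 444, 472 and 434 CPM, and its 4 cKO libraries 546, 540, 613 and 472 CPM. All cKO libraries were above all control libraries, but cKO 4 (472.3 CPM) barely exceeded control 3 (472.2 CPM). The control mean was 441 ± 24.6 and the cKO mean 543 ± 57.5 CPM, giving a log2 fold change of 0.30 (SE 0.10, 95% interval 0.08 to 0.52; edgeR adjusted p = 0.154). An exact permutation test (two-sided) returned p = 0.0286, which no arrangement among the 70 possible can undercut. Isl1 did not pass in 19 of 20 alternative settings, where its log2 fold change was always positive. It passed only in limma voom with sample weights (adjusted p = 0.021), a setting that called 1540 genes in all, and the adjusted p over all alternatives ranged from 0.021 to 0.376.

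Sensory neurons also express Isl1, so markers of sensory and nodose neurons were set beside it. Of 16 such markers, 10 were tested and none passed, with Prrxl1 and P2rx3 having the smallest p (adjusted p = 0.0976 and 0.548). Of the 10, 9 were positive, with a median log2 fold change of 0.73. Prrxl1, a homeobox gene of sensory neurons, was the one whose groups did not overlap (log2 fold change 1.35, SE 0.39). It had 0.429 to 0.79 CPM in control and 0.916 to 2.67 CPM in cKO libraries. It passed in 3 of the 19 alternatives that tested it, and the filter of 1 CPM in 4 libraries left it out. It was highest in cKO 3, the library with the highest Isl1. The markers' summed level was between 39.3 and 98.5 CPM in control and between 39.6 and 231 CPM in cKO libraries, and the highest of each group were control 4 and cKO 4. Pou4f1, the homeobox gene that defines most sensory neurons, was at most 0.425 CPM in control libraries and reached 2.75 CPM in 1 cKO library, cKO 4. The library richest in sensory markers, cKO 4, had the lowest Isl1 of the cKO group. Without control 4 and cKO 4 the log2 fold change of Isl1 was 0.35 (edgeR adjusted p = 0.301). The part of sensory neurons in the Isl1 values was not tested.

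Phox2a (ENSMUSG00000007946.11, chromosome 7, 101818313 to 101822726, plus strand) had 441, 239, 275 and 282 CPM in control and 357, 247, 297 and 270 CPM in cKO libraries. Control 1 and cKO 1 were the highest of their groups, and the groups overlapped over most of their ranges. The log2 fold change was -0.08 (SE 0.19, 95% interval -0.50 to 0.34, adjusted p = 0.906). Its sign rested on control 1: without that library the log2 fold change was 0.13. The last 95 bases of its exons overlap exons of Inppl1 on the opposite strand, and Inppl1 (25.4 to 51.5 CPM in control libraries) differed by 0.24 on the log2 scale (SE 0.27) and did not pass.

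Hand2 is needed for noradrenergic differentiation, and Hand1 is its closest bHLH relative. Hand2 (ENSMUSG00000038193.4, chromosome 8, 57320983 to 57324633, plus strand) had 375, 261, 320 and 288 CPM in control and 323, 205, 285 and 275 CPM in cKO libraries. The lowest library was cKO 2 and the highest control 1, and the other 6 were interleaved. Its log2 fold change was -0.19 (SE 0.15, 95% interval -0.53 to 0.15, adjusted p = 0.614). The Hand2 exons overlap those of the opposite-strand gene Hand2os1 by 461 bases, a gene not analysed here. Hand1 (ENSMUSG00000037335.13, chromosome 11, 57828705 to 57832818, minus strand) had 210, 199, 255 and 225 CPM in control and 203, 213, 227 and 193 CPM in cKO libraries. These values lay close together, with coefficients of variation of 10.9% and 6.83% in the 2 groups, and the log2 fold change was -0.09 (SE 0.11, 95% interval -0.32 to 0.14, adjusted p = 0.765). The length-scaled ratio of Hand2 to Hand1 was 1.19 ± 0.214 in control and 1.11 ± 0.227 in cKO libraries (SD, n = 4), so the balance of the pair differed by less than the spread.

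Gata2 and Gata3 act downstream of the bHLH and Phox2 factors, Gata3 being needed for the expression of Th, the first enzyme of noradrenaline synthesis. Gata2 (ENSMUSG00000015053.14, chromosome 6, 88193891 to 88207032, plus strand) had 448, 343, 331 and 360 CPM in control and 455, 326, 426 and 339 CPM in cKO libraries. Its groups covered almost the same range, with a log2 fold change of 0.06 (SE 0.14, 95% interval -0.25 to 0.37, adjusted p = 0.902). Gata3 (ENSMUSG00000015619.10, chromosome 2, 9857078 to 9890034, minus strand) had 216, 175, 146 and 170 CPM in control and 201, 147, 177 and 126 CPM in cKO libraries. The lowest value was in cKO 4 and the highest in control 1, and the log2 fold change was -0.12 (SE 0.16, 95% interval -0.48 to 0.24, adjusted p = 0.807). The length-scaled ratio of Gata2 to Gata3 was 1.55 ± 0.0968 in control and 1.77 ± 0.155 in cKO libraries, with control 3 (1.68) inside the cKO range of 1.64 to 1.98. Gata3 overlaps 9230102O04Rik by 77 exonic bases on the same strand and 4930412O13Rik in its span on the opposite strand. Exons of the antisense gene Gm13256, not analysed here, overlap those of Gata3 by 155 bases. The log2 fold changes of 9230102O04Rik and 4930412O13Rik were 0.04 (SE 0.16) and -0.35 (SE 0.21), and neither passed.

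Both GATA factors are also used outside neurons, Gata2 by endothelial and mast cells and Gata3 by T cells. Of 12 endothelial markers 3 rose, where 1.6% of all tested genes did. These were Pecam1, Eng and Tek, with log2 fold changes of 0.54, 0.70 and 0.70. The summed level of all 12 was 206 to 292 CPM in control and 335 to 359 CPM in cKO libraries. Leaving out control 2, control 4 or cKO 3 ended all 3 calls, as did leaving out control 4 and cKO 4 together. Eng was also lost without control 3, cKO 2 or cKO 4, and Tek without control 3, cKO 1 or cKO 2, while the log2 fold changes stayed between 0.51 and 0.78 with single libraries left out. Gata2 itself, at 331 to 448 CPM in control and 326 to 455 CPM in cKO libraries, did not separate the groups in that way. None of 6 tested mast cell markers passed, with Cma1 at 0.44 (SE 0.61) and Tpsb2 at 0.35 (SE 0.57). Summed over all 9 markers of that list, the level was highest in control 1 (133 CPM) and cKO 1 (118 CPM). These libraries had the highest Gata2 of their groups. The T cell genes Cd3e, Cd3d and Cd3g were at or below 0.228 CPM in every library. Only 3 T cell genes were tested and none passed, with Cd4 at 0.52 (SE 0.38) and Lck at 0.19 (SE 0.18). The part of endothelial and mast cells in the Gata2 values was not tested, and that of T cells in Gata3 was not tested beyond these low Cd3 levels.

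Tfap2b (ENSMUSG00000025927.13, chromosome 1, 19208914 to 19238576, plus strand) had 477, 571, 447 and 496 CPM in control and 446, 428, 504 and 325 CPM in cKO libraries. The lowest was cKO 4 and the highest control 2, with the other libraries between 428 and 504 CPM. The log2 fold change was -0.23 (SE 0.14, 95% interval -0.53 to 0.08, adjusted p = 0.476), and without cKO 4 it was -0.12. Isl1 and Tfap2b thus lay on opposite sides of 0, and their length-scaled ratio was between 1.24 and 1.69 in control and between 1.95 and 2.33 in cKO libraries. This pair was chosen after the values were seen, and the ratio is given without a test.

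Insm1 (ENSMUSG00000068154.5, chromosome 2, 146221921 to 146225020, plus strand) was the least abundant factor, with 172, 82, 115 and 106 counts in control and 243, 138, 218 and 138 counts in cKO libraries. In CPM these were 10.5, 5.14, 6.58 and 6.44 in control and 13.9, 8.23, 12.4 and 7.44 in cKO ganglia. Control 1 lay inside the cKO range, and the other 3 controls lay below every cKO library. The log2 fold change was 0.55 (SE 0.26, 95% interval -0.03 to 1.13, adjusted p = 0.332), so the interval reached from 0.977-fold to 2.18-fold. With 1 library left out, it ranged from 0.37 to 0.78. It passed in 1 of 20 alternatives, limma voom with sample weights (adjusted p = 0.0346). Its paralogue Insm2, at 95.6 ± 16.9 CPM and 36.0 ± 6.33 CPM per kb in control ganglia, had a log2 fold change of -0.08 (SE 0.17, adjusted p = 0.881).

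The intervals bound what these libraries allow. For Phox2a, Hand1, Hand2, Gata2, Gata3 and Tfap2b the 95% intervals ran from 0.691-fold at the lowest to 1.29-fold at the highest, and for Isl1 from 1.06-fold to 1.44-fold. Those of Insm1 reached 2.18-fold. A missed threshold does not show that the levels were equal.

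**Figure D3:**
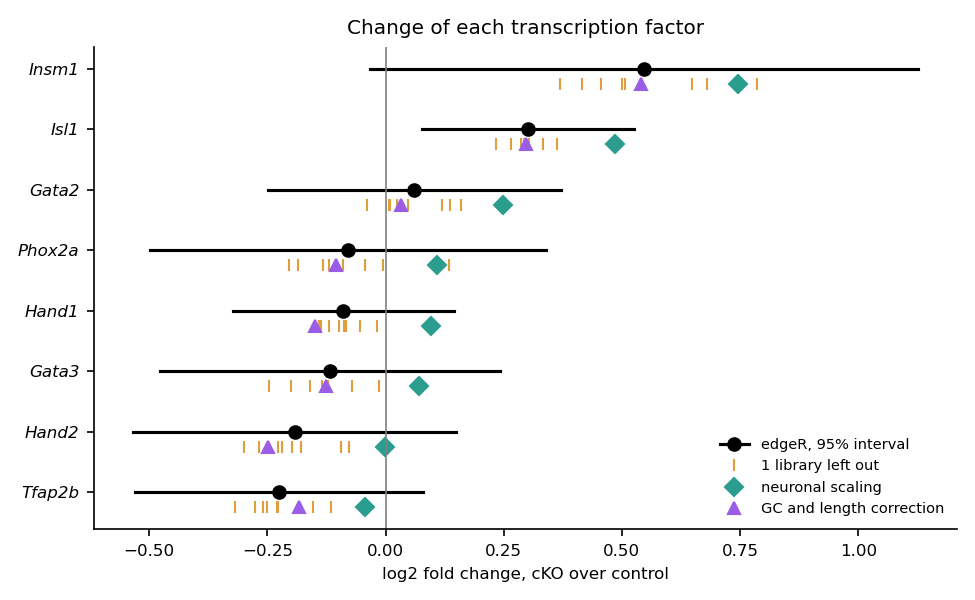
Log2 fold change (cKO over control) of each transcription factor, with edgeR's 95% interval (black), and below it the values with 1 library left out (orange ticks), under neuronal scaling (green) and after correction for GC and length (purple). Only the interval of Isl1 (0.08 to 0.52) leaves out 0, and neuronal scaling moves every gene to the right.

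All 8 factors are made by neurons, so markers of neurons and of the other cells of the ganglion were set beside them. All 15 pan-neuronal markers had negative log2 fold changes (median -0.17), and none passed, with Prph and Tubb3 having the smallest p (log2 fold changes -0.42 and -0.26, adjusted p = 0.0567 and 0.203). The groups' summed levels overlapped, lying between 21108 and 23960 CPM in control and between 17756 and 21657 CPM in cKO libraries. Of 13 mural cell and fibroblast markers 6 rose, Pdgfra, Prrx1, Col1a2, Pdgfrb, Notch3 and Col3a1, where 1.6% of all tested genes rose. The summed level of all 13 was 5318 to 6819 CPM in control and 7378 to 10809 CPM in cKO libraries. Pdgfra passed in all 20 alternatives. The other 5 were lost without control 2, without control 4, and without control 4 and cKO 4 together, and 4 of them, Col1a2, Pdgfrb, Notch3 and Col3a1, also without 1 or more of the other libraries. Col3a1 was lost in 9 of 20 alternatives, Pdgfrb and Notch3 in 6 each, Col1a2 in 4 and Prrx1 in 3, with log2 fold changes from 0.52 to 0.86 over the single libraries left out. Of 11 glial markers 2 rose, Mbp and Apoe, against the same 1.6% of all tested genes. The summed level of all 11 was 2073 to 2670 CPM in control and 3142 to 3665 CPM in cKO libraries. Mbp was lost without control 4, and Apoe without control 2, control 4, cKO 2, cKO 3 or cKO 4, and both without control 4 and cKO 4 together. Scaling each library by its pan-neuronal counts moved the median of all genes up by 0.18 on the log2 scale. On that scale Isl1 had a log2 fold change of 0.48 (adjusted p = 0.0505), Insm1 0.74, Gata2 0.25, Phox2a 0.11, Hand1 0.095, Gata3 0.072, Hand2 -0.0020 and Tfap2b -0.045, and none passed. Phox2a, Hand1 and Gata3 thereby changed sign, while Isl1, Insm1 and Gata2 stayed positive. The part of a changed cell mix in the values of the 8 factors was not tested.

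Chromaffin cells of the adrenal medulla share most of these factors with sympathetic neurons. Of 8 chromaffin and glomus cell markers, Cartpt, Cox4i2 and Penk rose and Slc18a1 fell, where 1.6% of all tested genes rose and 1.12% fell. The summed level of all 8 was 615 to 699 CPM in control and 836 to 1114 CPM in cKO libraries. Rgs5 of this list is also on the mural cell and fibroblast list, and Chga and Slc18a1 are also on the noradrenergic list described below. Cartpt passed in all 20 alternatives, and Cox4i2 was lost in 3, without control 2, without control 4, and without control 4 and cKO 4 together. Penk (adjusted p = 0.0487) was lost in 10 of 20, with DESeq2 size factors, after the GC and length correction, without each single library but control 1, and without control 4 and cKO 4 together. Pnmt, the adrenaline-synthesis gene that defines chromaffin cells, had a mean of 6.99 ± 1.24 CPM in the control group against 7.14 ± 0.975 CPM in the cKO group (log2 fold change 0.030, SE 0.17).

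The 8 factors varied between libraries of the same group, and not independently. Over the 8 libraries, log2 deviations from the group mean correlated between Phox2a and Gata2 (Pearson r = 0.886), Gata2 and Gata3 (0.919), Gata2 and Insm1 (0.937) and Phox2a and Hand2 (0.857). Against Phox2a the other 3 were near 0, at -0.0889 for Hand1, -0.152 for Isl1 and -0.0307 for Tfap2b, while Isl1 correlated with Hand1 (0.707) and with Tfap2b (0.71). These correlations are over 8 libraries that share their depth and preparation, and are given as a description. Control 1 exceeded the mean of the other controls by 0.74 for Phox2a, 0.80 for Insm1, 0.40 for Gata3, 0.38 for Gata2 and 0.38 for Hand2 on the log2 scale. For cKO 1 against the other cKO libraries the same genes differed by 0.40, 0.60, 0.43, 0.33 and 0.35. Hand1, Tfap2b and Isl1 differed by between -0.12 and 0.11 in these comparisons.

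GC content and length of the transcripts were set beside this pattern. The longest transcripts of Phox2a and Insm1 have a GC content of 63.8% and 62.0%, those of Hand2, Gata2 and Hand1 59.3%, 58.2% and 57.0%, and those of Gata3, Tfap2b and Isl1 49.7%, 46.3% and 45.7%. The median over tested genes was 49.8%. The longest transcripts of Phox2a, Insm1, Hand2, Gata2 and Gata3, the genes higher in control 1 and cKO 1, have 1609, 3100, 2351, 3571 and 3215 bases. Those of Hand1, Tfap2b and Isl1 have 1904, 5863 and 2516 bases. Across 11321 genes, which are not independent replicates, the deviation of control 1 and cKO 1 from the mean of all libraries rose with GC content (r = 0.258 and 0.268) and with transcript length (r = 0.39 and 0.402). Control 2 and cKO 2 deviated the other way with GC content (r = -0.413 and -0.285). Muscle and cartilage markers were also highest in control 1 (summed level 130 CPM) and cKO 1 (272 CPM), against 54.3 to 78.2 CPM in the other libraries, and of 9 tested none passed (Col11a1 0.45, SE 0.16; Actc1 1.16, SE 0.49). The part of such tissue in the levels of the 8 factors was not tested. After correction of each library for GC content and length, an alternative chosen after seeing the data, none of the 8 genes passed, and Isl1 had a log2 fold change of 0.30 (adjusted p = 0.132) with groups that overlapped. Deviations of Phox2a and Gata2 still correlated then (r = 0.886), those of Phox2a and Gata3 more closely (0.894, against 0.74 before), those of Phox2a and Hand2 less closely (0.534), and those of Phox2a and Isl1 at 0.63. Isl1 also correlated then with Hand2 (0.831, against -0.0472 before), Gata3 (0.804, against 0.224), Gata2 (0.767, against 0.148) and Insm1 (0.85, against 0.249). Its correlation with Tfap2b fell to 0.45, and Tfap2b stayed near 0 against Hand2 (-0.0495). The separation of Isl1 from these genes was thus not kept after the correction. The part of GC content and length in the pattern was not tested beyond this correction.

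**Figure D4:**
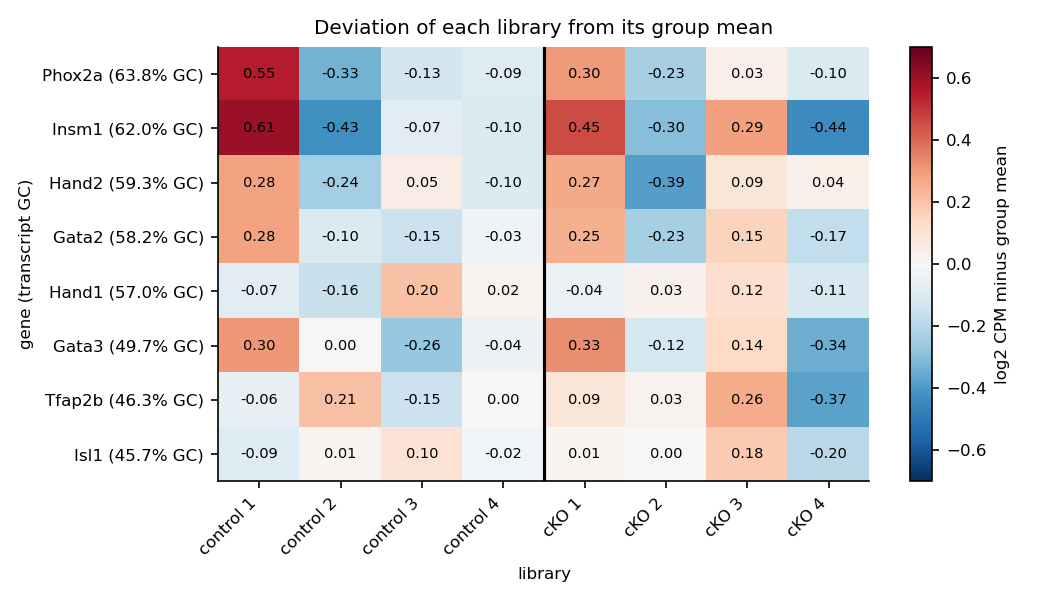
Log2 CPM of each transcription factor in each library minus its group mean, with genes ordered from the highest transcript GC content (top) to the lowest (bottom). Control 1 and cKO 1 are above their group means for Phox2a (0.55 and 0.30), Insm1, Hand2, Gata2 and Gata3, and near them for Hand1, Tfap2b and Isl1.

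Genes with the most similar profile were named for each factor from 11256 genes at 5 CPM or more, by Pearson r of log2 CPM over the 8 libraries. They were Armc5 (r = 0.984) and Fam134a (0.976) for Phox2a, Rtn2 (0.985) and Gtpbp2 (0.981) for Hand2, and Slco3a1 (0.993) and Fbrsl1 (0.993) for Gata2. Gata3 was closest to Tnrc6b (0.987) and Frs2 (0.984), Insm1 to Prnp (0.993) and Pros1 (0.978), and Tfap2b to Ric8b (0.989) and Zfp280b (0.984). Isl1 was closest to Trip10 (0.973) and Ptprc (0.951), and Hand1 had the weakest likeness, to Nat6 (0.891) and Trmt61a (0.87). These are the 2 highest coefficients of a search over many genes with 8 libraries, and no member was among the 2 closest genes of another.

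The other transcription factors and partners of the lineage were described from a list of 39 genes, of which 38 were tested. Ebf3 rose and the other 37 did not pass, where 2.72% of all tested genes passed in either direction. The list's median log2 fold change was 0.13, with 26 positive and 12 negative values, beside 7283 positive and 7309 negative values over all tested genes. Ebf3, a zinc finger and helix-loop-helix factor of developing neurons, had 7.47, 5.20, 6.92 and 8.44 CPM in control and 13.9, 13.6, 18.9 and 19.2 CPM in cKO libraries. Every cKO library was above every control library, and the log2 fold change was 1.23 (SE 0.19, edgeR adjusted p = 0.00902). Its call was lost with control 4 and cKO 4 left out together (adjusted p = 0.0548), and held with each single library left out. Its paralogue Ebf1 stood at 0.25 on the log2 scale (SE 0.23), short of the threshold.

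The proteins that work directly with the 8 factors did not pass in any class. The GATA cofactors Zfpm1 and Zfpm2 had log2 fold changes of 0.10 and -0.07. The E proteins, with which Hand proteins pair to bind DNA, were at 0.27 for Tcf3, 0.12 for Tcf4 and 0.38 for Tcf12, and the Id proteins, which block such pairs, were between 0.05 (Id1) and 0.35 (Id3). Among LIM-domain partners, Ldb1, the adaptor of Isl1, was at 0.25, Lmo1 at 0.13 and Lmo4 at 0.41, the last with an adjusted p of 0.16. Tfap2a, the paralogue of Tfap2b, was far lower than it, at 1.61 ± 0.339 against 78.5 ± 8.38 CPM per kb in control ganglia, with a log2 fold change of 0.27 (SE 0.17). Sox4, Sox11 and Mycn were at 0.10, -0.22 and -0.03, and Tbx2 and Tbx20 at 0.00 and -0.23. Among the homeobox group, Meis2 had groups that did not overlap, with a control mean of 5.04 ± 0.488 and a cKO mean of 8.85 ± 2.54 CPM, but did not pass (adjusted p = 0.0704). Meis2 was chosen here after its values were seen, as was the grouping of these genes by role.

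**Figure D5:**
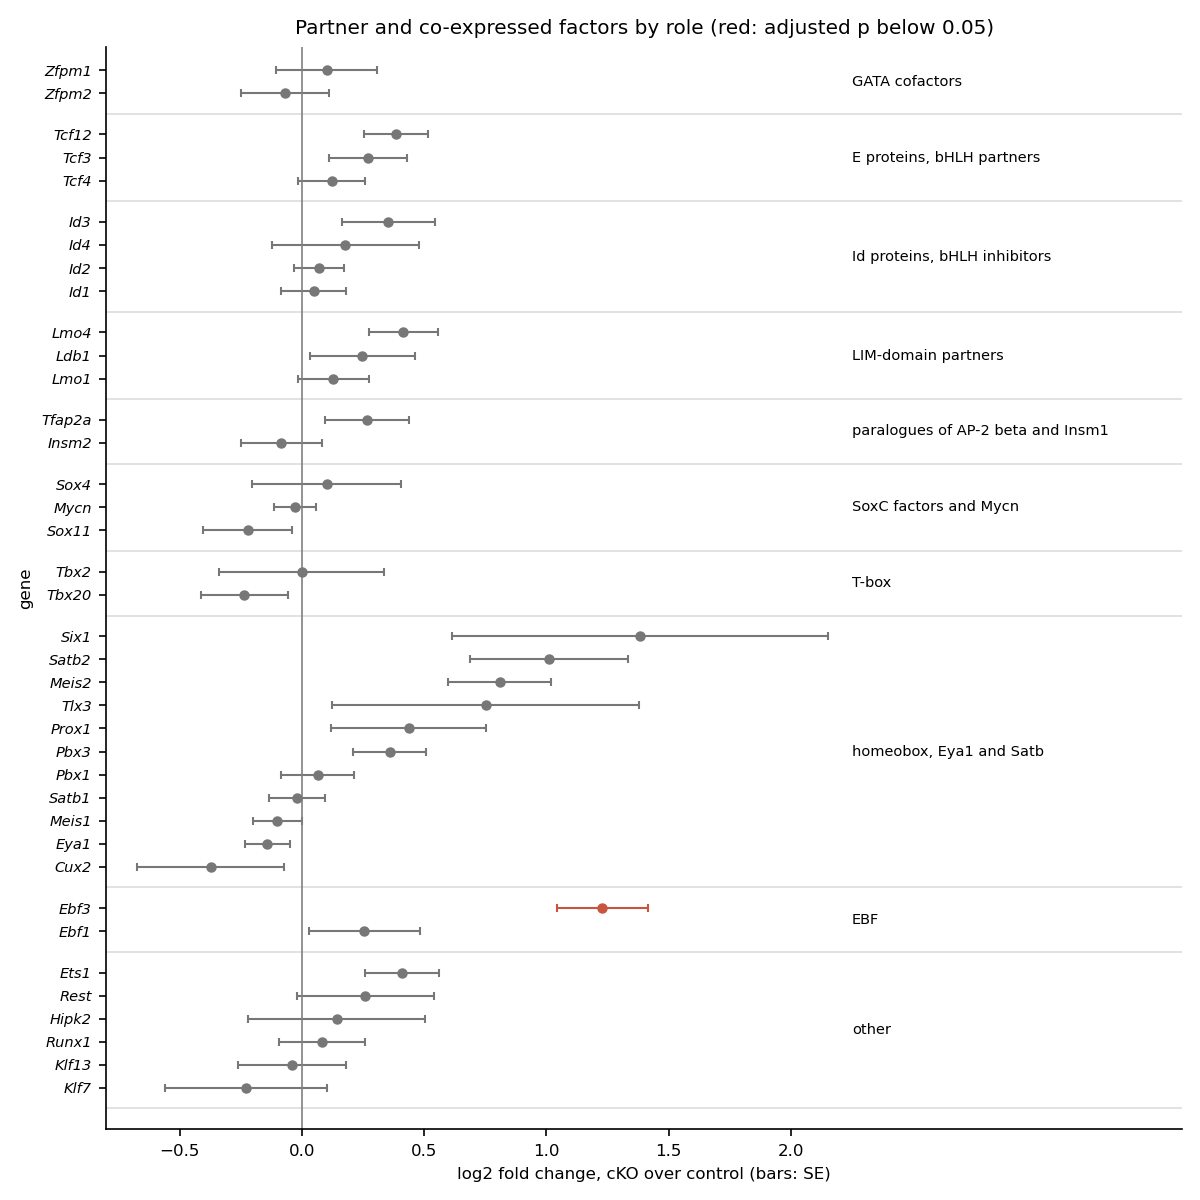
Log2 fold change (cKO over control, bars for SE) of 38 tested partner and co-expressed transcription factors, grouped by role. Ebf3 (1.23) is the only one drawn in red for an adjusted p below 0.05, and the GATA cofactors, E proteins, Id proteins and LIM-domain partners lie between -0.07 and 0.41.

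Genes that these factors control in noradrenergic neurons were described from a list of 15, all tested. None rose and 2 fell, Slc18a1, a vesicular monoamine transporter, by 1.06 (SE 0.20, adjusted p = 0.0227) and Adra2a, an inhibitory adrenergic receptor, by 0.72 (SE 0.15, adjusted p = 0.0355) on the log2 scale in edgeR's test. That is 2 of 15, where 1.12% of all tested genes passed as lower. Of the 15, 9 had an unadjusted p below 0.05 in the same test, where 16.8% of all tested genes did. Summed over all 15, the level was 13912 to 14361 CPM in control and 11954 to 12337 CPM in cKO libraries. The list's median log2 fold change was -0.19, with 4 positive and 11 negative values, beside -0.17 for the 15 pan-neuronal markers, all negative. The part of that shift in the noradrenergic values was not tested. Slc18a1 went from a control mean of 42.8 ± 10.4 to a cKO mean of 20.5 ± 4.18 CPM, and Adra2a from 76.0 ± 10.1 to 46.3 ± 8.52 CPM. Both were among 6 genes of the list whose cKO libraries all lay below all control libraries, where 5.02% of all tested genes did, and 2 genes of the list had all cKO libraries above all control libraries, where 6% did. The call of Slc18a1 was lost without control 2, control 3, control 4 or cKO 3, and that of Adra2a without each of control 2 to control 4 and cKO 2 to cKO 4, and both were lost with control 4 and cKO 4 left out together, with log2 fold changes from -1.20 to -0.92 and from -0.83 to -0.60 over the single libraries left out. Adra2a was also lost under neuronal scaling, at -0.52. The 3 next in p, chosen after their values were seen, were Slc6a2, the noradrenaline transporter, at -0.51 (adjusted p = 0.0545), Chga, a granin, at 0.48 (0.0545), and Gfra3, a receptor for artemin, at 0.44 (0.0552). The synthesis and storage genes Th, Ddc and Slc18a2 had log2 fold changes of -0.12, 0.09 and 0.04, and Dbh, whose promoter also drives Cre, had -0.19.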

How the data were processed

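Polyadenylated RNA of each animal's ganglion pair was made into TruSeq v2 libraries from samples with an integrity index above 7.5, per the labels' protocols. The authors deposited whole-number read counts per gene symbol. STAR and the build mm10 are named in the submitters' processing notes. The sources used here do not give its version, the counting program, the annotation or the use of strand, so how reads on overlapping genes were assigned is unknown.

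Testing used edgeR 4.0.16 (R 4.3.3) with TMM scaling, filterByExpr and a robust quasi-likelihood fit with group as covariate, over 14592 genes. Calls were made at a Benjamini-Hochberg adjusted p below 0.05. SE is |log2 fold change| over the root of F. Log2 CPM for the permutation test, the correlations and the search for similar profiles had a prior count of 2. Lengths, GC content and coordinates came from GENCODE vM21 (GRCm38, also called mm10), and promoters from RefSeq. GC content and length were found for 93.2% of tested genes. The pipeline was checked on simulated data. It called 35.8% of simulated 1.5-fold changes, 86.6% of 2-fold and 98.5% of 4-fold changes, and 6.96% of its calls were false.

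Alternatives were DESeq2 1.42.0 (size factors; Wald test), library size alone, pan-neuronal scaling, 2 other filters, limma 3.58.1 voom with and without sample weights, a replicate block, libraries left out, and a GC and length correction added after seeing the data. Replicates differed by more than sampling noise (chi-square per gene 8.10 to 59.0). The members and gene lists were chosen with earlier results of these data known. Named were the 8 members, Kif1b, up to 6 passing genes of each other list (or the 2 with the smallest p), tested genes overlapping a member and the 2 genes most like each member. Partner genes and further noradrenergic genes are named for their roles, chosen after their values were seen. Some genes of the lists are not reported here and are left out of the list counts.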

Additional observations from a re-analysis of the deposited data

Results flagged for a closer look

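A check for a single library far from the other 3 of its group was run on 78 groups of 4 libraries and met its limit in 5, where chance gives about 1 in 20; none was a group of the 8 transcription factors. Control 1 was high for Pecam1 (47.2 CPM) and for Mbp (108 CPM). Control 2 was low for Tek (7.89 CPM). In cKO ganglia, cKO 1 was high for Notch3 (59.7 CPM) and for Penk (38.7 CPM).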

How the results depend on the processing

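The count of the 8 factors past the threshold was 0 as reported and in 19 of 20 alternatives, and 2 (Isl1 and Insm1) in limma voom with sample weights. The count over all genes, 397 as reported, was 865 under neuronal scaling (780 higher, 85 lower, against 234 and 163), 1012 with the Wald test of DESeq2, 1540 with voom and sample weights, 687 with the replicate block, 65 without control 4 and cKO 4, and 1169 after the GC and length correction (573 higher, 596 lower). With 1 library left out it ranged from 74 to 514, and was lower by over 1.5 times without control 2 (79), control 3 (249), control 4 (74), cKO 2 (147) or cKO 3 (137). Library size alone called 488 genes, 343 of them higher. Leaving out control 1 and cKO 1 together called 434 genes. The cause of these shifts was not tested.

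Signs changed as follows on the log2 scale. Phox2a was at 0.11 under neuronal scaling, 0.047 in voom with sample weights, 0.031 without control 1 and cKO 1, and between -0.20 and 0.13 with 1 library left out. Under neuronal scaling Hand1 was at 0.095 and Gata3 at 0.072. With 1 library left out, Gata2 ranged from -0.039 (without cKO 1) to 0.16, Tpsb2 from -0.12 to 1.11, Inppl1 from -0.0070 to 0.48, P2rx3 from -0.017 (without cKO 4) to 0.96 and 9230102O04Rik from -0.032 to 0.087, the last also at -0.0092 after the GC and length correction. The cause was not tested. Hand2, Tfap2b, Insm1 and Isl1 kept their sign in all 20.

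Numbers in the labels were shared between groups, and same-numbered deviations correlated at 0.725, 0.352, -0.302 and 0.265. These mixed values do not settle whether the numbers mark pairs of libraries. With the replicate block Isl1 had a log2 fold change of 0.30 (edgeR adjusted p = 0.103), and none of the 8 passed.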
